A study of Mus musculus with 24 samples.

Results

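Integrins and classical or related cadherins, the receptors with which cells hold on to matrix and to each other, were followed across 7 mouse cell lines. The genes were taken by symbol: Itga or Itgb chains with a number, leaving out Itgb2, and Cdh genes with a number. This gave 42 genes, 19 integrins and 23 cadherins, among 22881 symbols and 45547 names on the array. They were read by 67 of 56488 probes, and no gene of the rule was without a probe. Integrin chains named by a letter (such as Itgav) and Itgb2 are outside the rule and stand below among the pathway lists.

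An integrin is a pair of 1 alpha and 1 beta chain, and the pair decides the ligand. The beta 1 chain joins most alpha chains and serves receptors for collagen, laminin and fibronectin, while beta 5 joins only the alpha v chain and beta 7 joins alpha 4 or alpha E on white blood cells. Inside the cell, talins and kindlins open the receptor and link it to actin. Of the cadherins, the classical ones mostly bind the same cadherin on the next cell and are tied to actin by catenins. Melanocytes use E-cadherin to contact keratinocytes, and melanoma cells are known to carry N-cadherin in its place.

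The samples were total RNA of cultured lines, 1 sample per array, on 24 arrays. The 5 melanoma lines carry B16F1-GFP in their names: M, the parental line (3 arrays), D, isolated late in a mouse model of tumour dormancy built on immunotherapy (4 arrays), and DB#1 (4 arrays), DB#2 (3 arrays) and DB#3 (3 arrays), a second generation recovered from brain. All of them share the B16F1 origin and the GFP label and were grown again in DMEM with 10% FBS before RNA was taken. The labels call M0 (4 arrays) and J365 (3 arrays) myeloid, give no treatment for them, and do not name the leukemia line behind either. Each name is 1 line, so the arrays of a name repeat that line and not an independent isolate, and p-values measure the spread between these samples, which may be technical. Signals are given as log2 intensity minus the 75th percentile of the array, so 0 is the level below which 75% of an array's probes lay. A probe is called read on an array where the scanner software marked it well above background.

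The label of each type was checked by markers. Over 8 melanocyte genes the mean signal ranged from 6.68 to 7.58 in melanoma samples, whereas the myeloid samples ranged from -4.45 to -4.09. Over 8 myeloid and blood genes it ranged from -5.08 to -2.90 (-4.21 without D replicate 3) in melanoma and from 0.25 to 1.23 in myeloid samples. Single genes did not all follow these means. Tyr, Mitf and Sox10 were read on every myeloid array, though all 8 melanocyte genes were called higher in M than in M0. Fcer1g, of the blood list, was read on every melanoma array and was not called between M and M0 (-0.08 ± 0.22, SE, adjusted p = 0.793, limma). Of the 7 blood genes tested there, 6 were called lower in M. Fibroblast (5 genes), endothelial (5), brain (5) and epithelial (5) lists were dim on the melanoma arrays, with means from -6.06 to -0.70. Esrp1, of the epithelial list, was nevertheless read on every melanoma and myeloid array. Pecam1, of the endothelial list, was read on every array of M, DB#1, DB#2 and DB#3 and on 3 of the 4 arrays of D. The brain mean hides single genes, since 3 of its 5 genes were read on all melanoma arrays, and Mbp, a myelin protein, was higher in DB#1 than in M (2.15 ± 0.43, SE, adjusted p = 0.00347) and D (2.12 ± 0.39, SE, adjusted p = 0.00978, limma), a call against D that was lost without DB#1 replicate 3. Its part in other results was not tested. The highest melanoma value of each of these 4 lists, and of the blood list, was on D replicate 3. That array had 89.9% of its probes read, against 43.6% to 53.8% on the others, and 62 of the 67 integrin and cadherin probes read, against 27 to 34. Without it, 0 integrin and cadherin genes were called in D against M and 3 in DB#2 against D by limma, as with it.

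The members were divided by where they were read. Of the 42 genes, 11 were read on all 24 arrays, 9 were read only on D replicate 3 (Cdh3, Cdh9, Cdh10, Cdh18, Cdh20, Cdh24, Itga11, Itgb6 and Itgb8), and Cdh5, the endothelial VE-cadherin, was read on no array. Another 4 genes were read on 16 or 17 of the 17 melanoma arrays and on no myeloid array (Cdh19, Itga1, Itga8 and Itga9), and Itga2b and Cdh15 were read on every myeloid array and, without D replicate 3, on no melanoma array. The other 15 were read on some arrays, from 1 array of DB#1 for Cdh17 upward. The pattern over the 42 genes separated the 2 cell types far more than the melanoma lines.

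**Figure D1:**
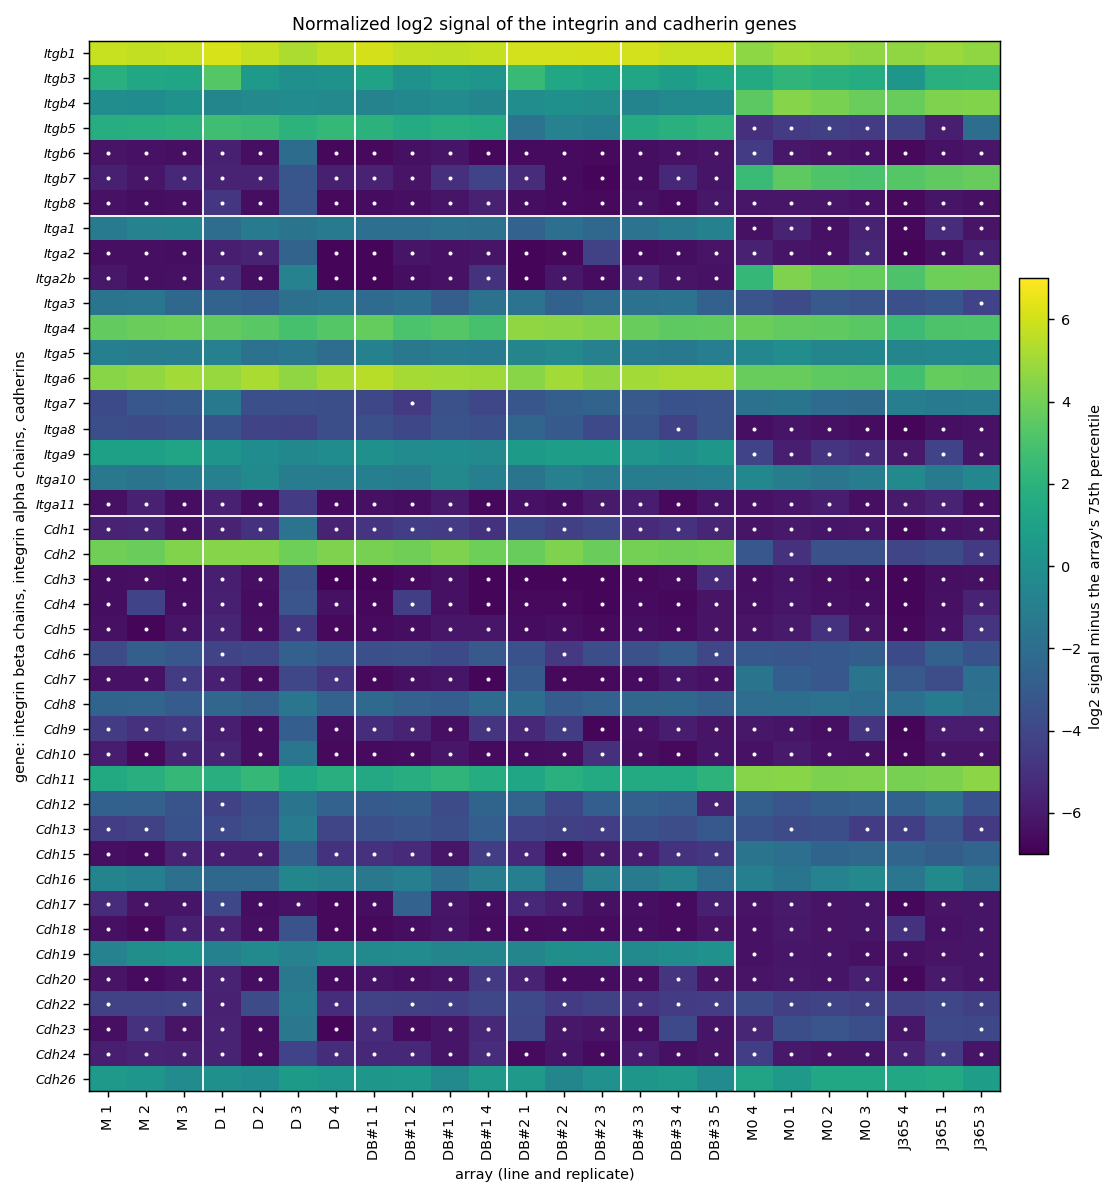
Signal of each of the 42 genes (rows: beta chains, alpha chains, then cadherins, by number) on each of the 24 arrays (columns, by line and replicate), as log2 intensity minus the 75th percentile of the array. White dots mark genes not read on that array. Itgb7 and Itga2b are bright on the 7 myeloid columns, Itgb5, Itga9 and Cdh2 on the 17 melanoma columns, and the column of D replicate 3 has almost no dots.

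Of the genes that separated the types, 4 are shown with the 250 bases before the start of the gene, because Itgb7 and Itga2b were bright together in both myeloid lines and Itgb5 and Itga9 together in the melanoma lines. The sequences are RefSeq's, build GRCm38.p6, 5' to 3' on the strand of the gene, and 28 of the 42 genes had such a window in the table used. Capitals mark the matches, on either strand, of 5 short motifs: GATAA (GATA factors), CATGTG and CACGTG (E-boxes, among them those of MITF), ACAAT (SOX factors) and GAGGAA (ETS factors).
Itgb7 (chr15:102231936-102232185, minus strand, myeloid): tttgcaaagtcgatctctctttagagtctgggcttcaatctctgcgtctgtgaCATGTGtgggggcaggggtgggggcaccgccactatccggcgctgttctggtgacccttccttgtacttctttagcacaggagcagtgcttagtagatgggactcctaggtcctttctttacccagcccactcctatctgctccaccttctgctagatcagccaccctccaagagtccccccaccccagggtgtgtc
Itga2b (chr11:102469884-102470133, minus strand, myeloid): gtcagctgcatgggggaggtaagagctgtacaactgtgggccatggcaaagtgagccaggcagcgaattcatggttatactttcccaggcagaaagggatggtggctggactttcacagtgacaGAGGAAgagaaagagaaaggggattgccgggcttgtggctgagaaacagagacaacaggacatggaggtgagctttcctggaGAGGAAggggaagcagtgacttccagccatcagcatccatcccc
Itgb5 (chr16:33829415-33829664, plus strand, melanoma): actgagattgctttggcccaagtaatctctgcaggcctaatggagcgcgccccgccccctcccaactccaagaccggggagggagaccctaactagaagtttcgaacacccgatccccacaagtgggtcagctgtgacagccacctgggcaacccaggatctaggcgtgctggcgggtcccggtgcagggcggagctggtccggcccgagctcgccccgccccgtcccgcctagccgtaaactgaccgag
Itga9 (chr9:118711442-118711691, plus strand, melanoma): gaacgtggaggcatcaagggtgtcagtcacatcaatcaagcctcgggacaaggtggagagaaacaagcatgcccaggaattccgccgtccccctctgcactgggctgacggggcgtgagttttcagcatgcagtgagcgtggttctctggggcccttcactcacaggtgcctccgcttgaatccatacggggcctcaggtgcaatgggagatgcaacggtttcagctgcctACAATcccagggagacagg

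The Itgb7 window held 1 CATGTG match, 197 bases before the start, and the Itga2b window held 2 GAGGAA matches, 126 and 44 bases before it. The Itga9 window held 1 ACAAT match, 19 bases before the start, and the Itgb5 window held none of the 5 motifs. Over all 32851 windows of the table, GATAA was found in 22.6%, CATGTG in 12.3%, CACGTG in 6.02%, ACAAT in 27.7% and GAGGAA in 23.3%. Among the 28 genes with a window, the motifs were found in 2, 6, 1, 5 and 12 genes, in the same order. These genes had 32 windows, and a gene was counted if any of its windows held the motif. The counts by gene and the shares by window are thus not like measures. The Itgb5 window had 65.2% G or C, against a median of 52.4% over all windows and 57% over those of the 28 genes. A match is only a run of letters, and no binding was measured here.

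The parental melanoma line was first set against the myeloid line M0, which compares 2 cell types, cultures and origins at once. Of 25 integrin and cadherin genes tested, 19 were called at an adjusted p under 0.05 (limma, Benjamini-Hochberg over all genes tested), 9 higher and 10 lower in M. The background was high, since 58.5% of all 22426 genes tested were called. Arrays of M and M0 did not overlap for 57.8% of all genes tested and for 19 of the 25 integrin and cadherin genes. The median difference was -0.22 on the log2 scale over the 25 genes and -0.13 over all genes tested.

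Among the beta chains, Itgb7 was read in the myeloid lines. Its signals in M0 were 2.57, 3.55, 3.13 and 2.97, those in J365 were 3.31, 3.60 and 3.74, and those in M were -5.78, -6.13 and -5.38, where it was not read. It was at least 163-fold higher in M0 than in M (adjusted p = 1.08e-11, limma). It was read on 2 of the 17 melanoma arrays, D replicate 3 (-3.24) and DB#1 replicate 4 (-4.20), both far below every myeloid array. Itgb4, the laminin receptor chain of hemidesmosomes, was read everywhere and stood at -0.16, -0.19 and 0.18 in M and at 3.46, 4.46, 4.17 and 3.81 in M0. The difference, -4.03 ± 0.20 (SE), had an adjusted p of 2.87e-13 in limma, and melanoma and myeloid arrays did not overlap.

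Itgb5 ran the other way. It was read on all 17 melanoma arrays and in M stood at 1.71, 1.80 and 2.02, while in M0 it was not read and stood at -5.11, -4.49, -4.36 and -4.51. It was at least 61.2-fold higher in M (adjusted p = 1.05e-09, limma). In J365 it stood at -4.25, -5.84 and -1.92 and was read on 2 of 3 arrays, so the arrays of J365 were uneven. Itgb5 did not meet the filter in J365 against M0 and was not tested there. Itgb1, the common partner, was bright in all lines and higher in M: 5.76 ± 0.06 (SD, n = 3) against 4.82 ± 0.22 (SD, n = 4) in M0, a difference of 0.94 ± 0.17 (SE, adjusted p = 5.59e-05, limma). A second Itgb1 probe gave a difference of 0.92. Itgb3, the partner of Itga2b on platelets and of the alpha v chain elsewhere, stood at 1.47 ± 0.34 (SD, n = 3) in M and 1.82 ± 0.27 (SD, n = 4) in M0 and was not called (adjusted p = 0.639, limma).

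The alpha chains divided in the same manner. Itga2b, the fibrinogen receptor chain of megakaryocytes and platelets, stood at 2.34, 4.31, 3.84 and 3.68 in M0 and at -6.09, -6.40 and -6.35 in M, where it was not read. It was at least 228-fold higher in M0 (adjusted p = 1.08e-08, limma), and among melanoma arrays only D replicate 3 read it, at -0.78. Itga9, which joins beta 1 and binds tenascin and osteopontin, stood at 0.95, 0.94 and 1.20 in M and between -5.85 and -4.18 in M0, where it was not read. It was at least 34.8-fold higher in M (adjusted p = 1.09e-11, limma). A second Itga9 probe was also read on all 17 melanoma arrays and on no other.

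The laminin receptor chains Itga6 and Itga3 were read on every array of both lines and were higher in M. Itga6 stood at 4.76 ± 0.29 (SD, n = 3) in M and 3.62 ± 0.15 (SD, n = 4) in M0, a difference of 1.14 ± 0.21 (SE, adjusted p = 0.000101, limma). A second probe read on all arrays gave 1.27. For Itga3 the difference was 1.56 ± 0.34 (SE, adjusted p = 0.000519, limma), while its second, dimmer probe was read on only 17 of 24 arrays and differed by 0.19. Itga7, a laminin receptor chain best known from muscle, was lower in M by the fit, at -1.46 ± 0.41 (SE, adjusted p = 0.00471, limma), a call lost with quantile normalization (adjusted p = 0.0971).

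Itga5, the fibronectin receptor chain, differed little: -1.05 ± 0.08 (SD, n = 3) in M and -0.46 ± 0.22 (SD, n = 4) in M0. The difference of -0.59 ± 0.20 (SE) had an adjusted p of 0.0168 in limma, and the call was lost without M replicate 3 (adjusted p = 0.0517) and without M0 replicate 1 (adjusted p = 0.0582). It was also lost with quantile normalization and with no scaling. Itga4, which joins beta 1 or beta 7 and binds VCAM-1 and fibronectin, was bright in both lines, at 3.77 ± 0.14 (SD, n = 3) in M and 3.62 ± 0.18 (SD, n = 4) in M0, and was not called (adjusted p = 0.548, limma). So the alpha 4 RNA was bright in both types while that of its partner beta 7 was read in the myeloid lines.

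**Figure D2:**
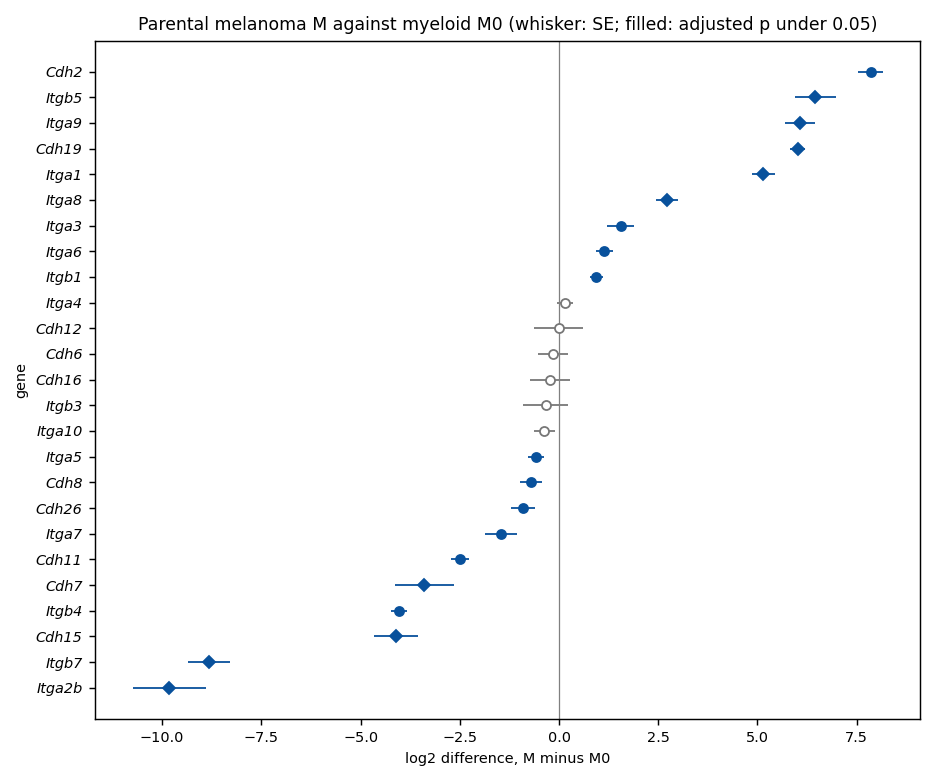
Difference in log2 signal between M (3 arrays) and M0 (4 arrays) for the 25 integrin and cadherin genes tested, with the SE of the fit as whiskers. Filled points were called at an adjusted p under 0.05, and diamonds mark 9 genes read in only 1 of both lines, for which only a bound holds. Cdh2 is at the top (7.85) and Itga2b at the bottom (-9.82).

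N-cadherin (Cdh2) was bright in melanoma and dim in the myeloid lines. It stood at 3.97, 3.79 and 4.35 in M and at -3.20, -5.01, -3.53 and -3.51 in M0, where 3 of 4 arrays read it, a difference of 7.85 ± 0.31 (SE, adjusted p = 6.75e-15, limma). Over the 5 melanoma lines its mean lay between 3.96 and 4.29, and every melanoma array was above every myeloid array. E-cadherin (Cdh1) was read on 3 of 24 arrays, D replicate 3 (-1.66) and 2 of the 3 arrays of DB#2, where its signals were -3.88, -4.35 and -4.01. P-cadherin (Cdh3) was read on D replicate 3 alone (-3.55).

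Cdh11, a cadherin of mesenchymal cells, was read on all 24 arrays and was lower in M, at 1.88 ± 0.43 (SD, n = 3) against 4.38 ± 0.13 (SD, n = 4) in M0. The difference was -2.50 ± 0.23 (SE, adjusted p = 7.95e-09, limma), a second probe gave -2.70, and melanoma and myeloid arrays did not overlap. Cdh26 was lower in M by -0.91 ± 0.30 (SE, adjusted p = 0.0142, limma), but not without M replicate 3 (-0.70, adjusted p = 0.0933), with no scaling (-0.77, adjusted p = 0.146) or over its 2 probes together (-0.50, adjusted p = 0.422). Cdh8, chosen after its values were seen, was lower by -0.71 ± 0.28 (SE, adjusted p = 0.0329, limma). That call was lost without M replicate 3 (-0.55) and without M0 replicate 1 (-0.72), 2 (-0.67) or 3 (-0.73), and with no scaling (-0.57), no filter (adjusted p = 0.0741) or the mean of its probes (-0.28). Cdh19, also chosen after its values were seen and known from Schwann cell precursors and the neural crest, was read on all 17 melanoma arrays, from -0.87 to 0.12, and on no myeloid array, from -6.39 to -6.15, and was at least 14.4-fold higher in M than in M0.

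The other 4 calls of this comparison, of which Itga8 was named after its values were seen, were Itga1 (at least 9.28-fold) and Itga8 (at least 1.34-fold) higher in M, and Cdh15 (at least 4.56-fold) and Cdh7 (at least 3.91-fold) lower, besides those above. The Itga8 call was lost with normexp background correction (adjusted p = 0.0548). A second Itga1 probe, read on 21 arrays, stood at -2.95 in M and -3.28 in M0 and did not separate them in that way. With slide as a block the same 19 genes were counted as called. No second probe of Itga2b, Itgb4, Itgb5 or Itgb7 was on the array.

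Within melanoma, the lines were compared with their parent M and with D. Dormancy, the brain site, the clone isolated and regrowth in culture cannot be told apart here. These comparisons share the M or the D arrays. In D against M, 0 of 21 integrin and cadherin genes were called by limma (5 at an unadjusted p under 0.05), where 2.96% of all genes tested were called. In DB#1 against M the count was 0 of 22 (5 unadjusted, background 3.69%), and in DB#3 against M 0 of 22 (0 unadjusted, background 2.76%). DB#2 against M gave 3 of 21, Itgb5, Itga1 and Itga4, with a background of 3.44%. Against D, DB#1 gave 0 of 22 (2 unadjusted, background 0.475%), DB#3 gave 0 of 20 (1 unadjusted, background 0.369%), and DB#2 gave 3 of 20, Itgb5, Itga4 and Itga5, with a background of 6.34%. All calls among melanoma lines were thus alpha or beta chains in DB#2, and no cadherin was called in any of the 7 comparisons. Arrays of D and M did not overlap for 8.43% of all genes tested and for 5 of 21 integrin and cadherin genes. In DB#1 these were 19.9% and 5 of 22, in DB#2 21.5% and 6 of 21, in DB#3 21% and 4 of 22. Against D they were 2.54% and 1 of 22 in DB#1, and 12.6% and 5 of 20 in DB#2. For DB#3 against D they were 4.28% and 0 of 20.

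**Figure D3:**
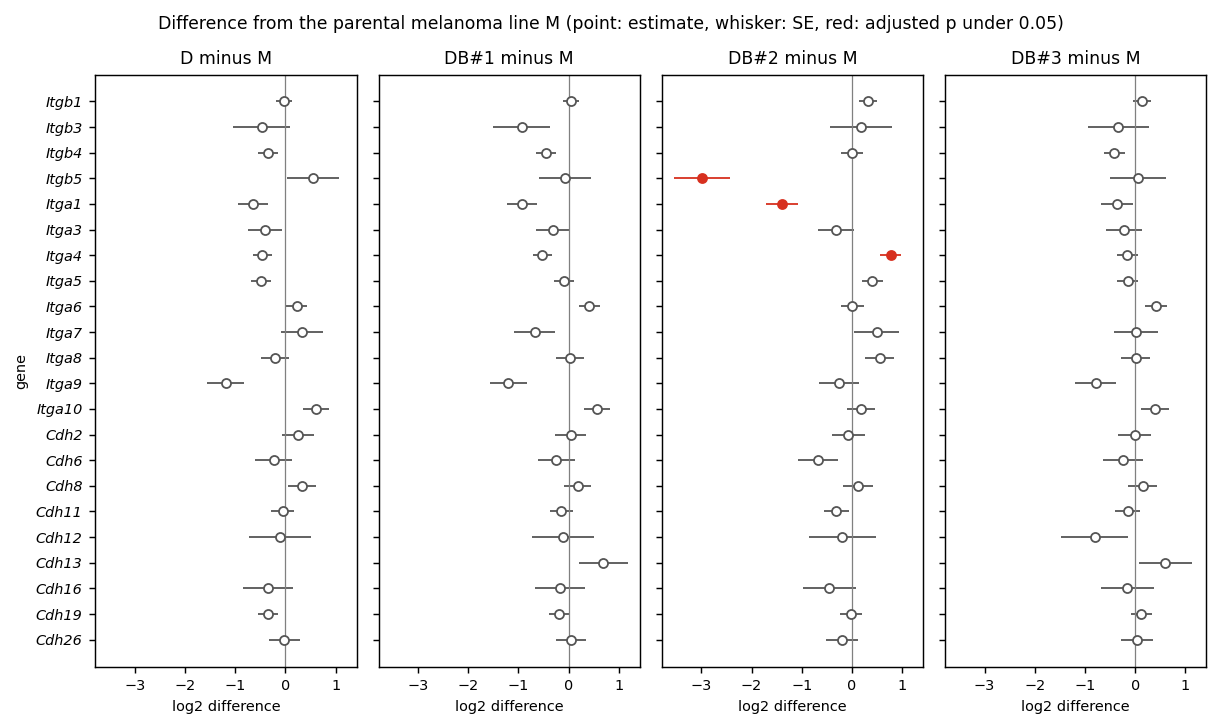
Difference in log2 signal from M for D, DB#1, DB#2 and DB#3 (panels), for the integrin and cadherin genes tested, with the SE of the fit as whiskers. Red points were called at an adjusted p under 0.05: Itgb5 (-2.99), Itga1 (-1.40) and Itga4 (0.77), all in DB#2.

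Itgb5 fell in DB#2. Its signals there were -1.66, -0.82 and -0.96, against 1.71, 1.80 and 2.02 in M, 2.68, 2.54, 2.03 and 2.34 in D, 1.97, 1.62, 1.81 and 1.65 in DB#1, and 1.64, 1.89 and 2.16 in DB#3. All 3 arrays of DB#2 lay below every array of the other melanoma lines, and above those of the myeloid lines, and the gene was still read on each of them. The difference was -2.99 ± 0.56 (SE) from M, a change of 7.95-fold, with an adjusted p of 0.0021, and -3.54 ± 0.52 (SE) from D, with an adjusted p of 0.00013 (limma). On the 3 slides taken alone the difference from M was -2.84, -3.46 and -2.67, and a block for slide gave -2.99 (adjusted p = 0.000876). In cultured bulk RNA, less Itgb5 in each cell and fewer cells with Itgb5 cannot be told apart. Its only known partner, Itgav, was bright in all lines, at 4.26 in M and 3.83 in DB#2. On chromosome 16, of the 16 genes nearest to Itgb5, 8 on each side, 11 were tested in DB#2 against M and 0 were called, with differences from -0.56 to 0.12.

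Itga4 rose in DB#2. Its signals were 4.65, 4.58 and 4.40 there, 3.63, 3.78 and 3.90 in M, 3.64, 3.40, 2.90 and 3.29 in D, 3.70, 3.06, 3.29 and 2.91 in DB#1, and 3.74, 3.54 and 3.56 in DB#3. All 3 arrays of DB#2 were above every other array of the series. The rise was 1.24 ± 0.19 (SE) from D, or 2.36-fold (adjusted p = 0.000235, limma), and a second, dimmer probe gave 1.22. From M it was 0.77 ± 0.21 (SE, adjusted p = 0.0399, limma), with 0.53 on the second probe. The call against M, unlike that against D, was lost when any 1 array of M or DB#2 was left out (0.70, 0.78 and 0.84 without M replicates 1, 2 and 3, and 0.72, 0.76 and 0.85 without DB#2 replicates 1, 2 and 3, with adjusted p from 0.0683 to 0.168). It was also lost with the replicate block (adjusted p = 0.0542), with no filter and with only the lines compared. Of the 9 tested among the 16 genes nearest to Itga4, 1, Frzb, was called in that comparison, and it was lower (-0.68 ± 0.17, SE, adjusted p = 0.0322).

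Itga1, the alpha chain of a collagen receptor with beta 1, fell in DB#2 against M. Its signals were -2.60, -1.91 and -2.33 in DB#2, -1.18, -0.77 and -0.67 in M, -2.02, -1.18, -1.59 and -1.31 in D, -1.87, -1.91, -1.68 and -1.77 in DB#1, and -1.69, -1.21 and -0.84 in DB#3. The DB#2 arrays were below those of M and DB#3 and met those of D and DB#1 at their lowest. The fall was -1.40 ± 0.32 (SE, adjusted p = 0.0141, limma), and it was present on each slide alone (-1.23, -1.83 and -1.15). The call was lost without M replicate 2 (-1.35, adjusted p = 0.0693) or 3 (-1.30, adjusted p = 0.0802) and without DB#2 replicate 1 (-1.24, adjusted p = 0.0944) or 3 (-1.38, adjusted p = 0.0578), and with quantile normalization (-1.39, adjusted p = 0.0594). A second Itga1 probe was not read on every array of both lines. Against D the difference was -0.76 ± 0.30 (SE, adjusted p = 0.169, limma).

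Itga5 rose in DB#2 against D. It stood at -0.65, -0.39 and -0.90 in DB#2 and at -0.91, -1.72, -1.53 and -2.0 in D. The lines did not overlap, as for 12.6% of all genes tested, with D replicate 1 just below the lowest DB#2 array. The rise was 0.89 ± 0.20 (SE), or 1.85-fold (adjusted p = 0.0083, limma). The call was lost without DB#2 replicate 2 (0.76, adjusted p = 0.072) and when only the arrays of D and DB#2 were fitted (adjusted p = 0.275). Without D replicate 1 Itga5 was also lower in D than in M, by -0.70 ± 0.17 (SE, adjusted p = 0.0202), where all 4 D arrays gave -0.49 ± 0.20 (SE, adjusted p = 0.285). Itgb1, the partner of all 3 of these alpha chains, was 0.31 ± 0.18 (SE, adjusted p = 0.569) from M in DB#2 and was not called in any melanoma comparison.

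**Figure D4:**
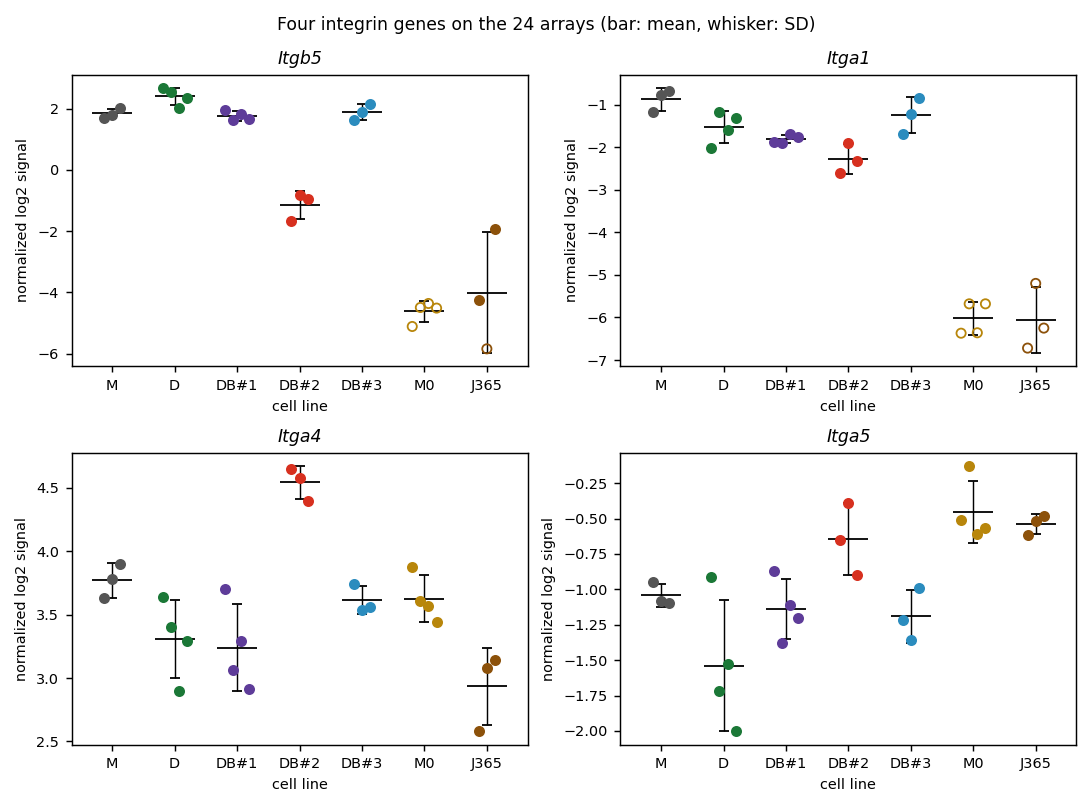
Signal of Itgb5, Itga1, Itga4 and Itga5 (log2 intensity minus the 75th percentile of the array) on each array, by cell line. Filled points were read and open points were not, bars are means and whiskers SDs over the 3 or 4 arrays of a line. The 3 DB#2 points of Itgb5 (-1.66 to -0.82) lie below the other melanoma lines, and those of Itga4 (4.40 to 4.65) lie above all other points.

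Itga9, described here after its values were seen, was lower in D and DB#1 than in M without passing the test. It stood at 0.95, 0.94 and 1.20 in M, 0.22, -0.21, -0.44 and -0.19 in D, 0.01, -0.22, -0.18 and -0.29 in DB#1, 0.31, 0.02 and 0.40 in DB#3, and 0.62, 0.83 and 0.87 in DB#2. All arrays of the 4 derived lines were below those of M, by little in DB#2 (highest 0.87, lowest of M 0.94). Across the derived lines, 8.43% to 21.5% of all genes tested did not overlap M. The differences from M were -1.19 ± 0.37 (SE, adjusted p = 0.104) in D, -1.20 ± 0.37 (SE, adjusted p = 0.0882) in DB#1, -0.79 ± 0.40 (SE, adjusted p = 0.55) in DB#3 and -0.26 ± 0.40 (SE, adjusted p = 0.964) in DB#2 (limma). D was called with the mean of both probes (-0.96, adjusted p = 0.0174) and with normexp background correction (-1.03, adjusted p = 0.00225). DB#1 was called under both of these (-1.15 and -1.01) and with only the arrays of the 2 lines (-1.20, adjusted p = 0.00201).

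Itgb3 was uneven in D. Replicate 1 stood at 3.33 and the others at 0.50, 0.03 and 0.14, beside 1.86, 1.32 and 1.24 in M and 2.42, 1.39 and 1.13 in DB#2. The same array stood apart for Itga7 (-1.33, against -3.60, -3.57 and -3.61). With all arrays Itgb3 differed by -0.47 ± 0.57 (SE, adjusted p = 0.896) between D and M and by 0.65 ± 0.57 (SE, adjusted p = 0.676) between DB#2 and D. Without D replicate 1 these became -1.25 ± 0.37 (SE, adjusted p = 0.0618) and 1.42 ± 0.37 (SE, adjusted p = 0.0179, a call).

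**Figure D5:**
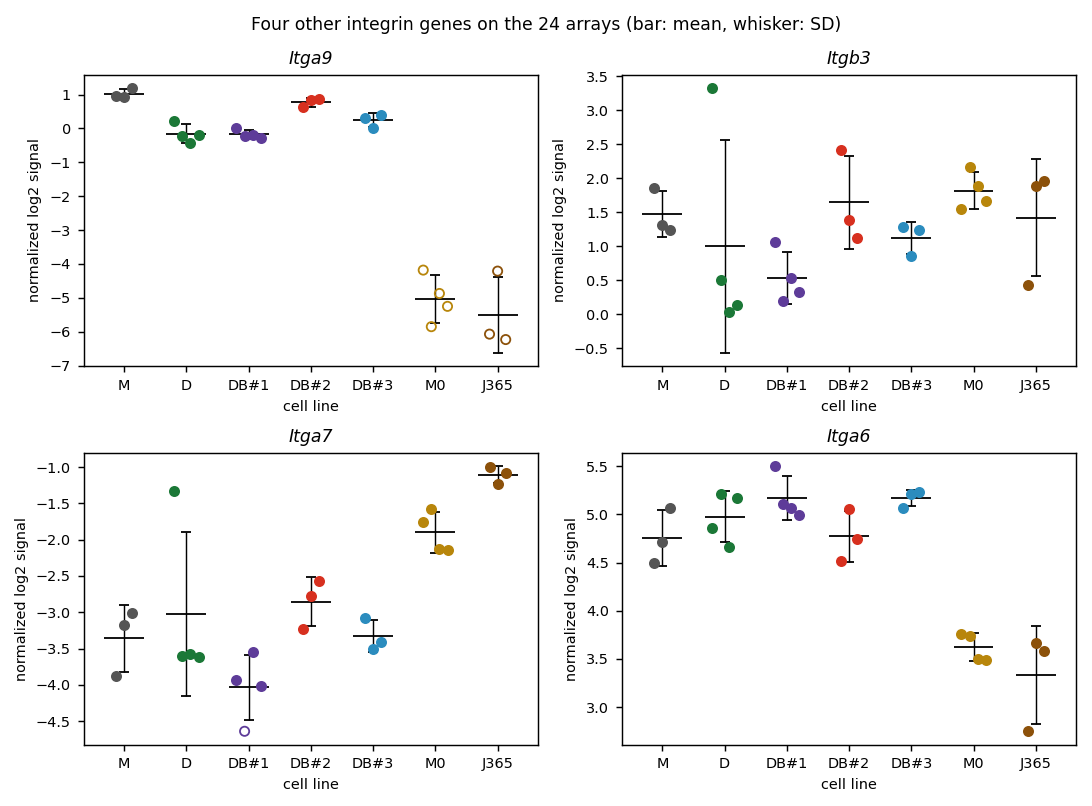
Signal of Itga9, Itgb3, Itga7 and Itga6 (log2 intensity minus the 75th percentile of the array) on each array, by cell line, drawn as in the plot of the DB#2 genes. D replicate 1 stands apart for Itgb3 (3.33) and Itga7 (-1.33), and the 4 derived melanoma lines lie below M for Itga9.

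Of the remaining chains with a textbook role, Itga6 had means from 4.76 to 5.17 over the melanoma lines and 3.62 and 3.33 in M0 and J365, and Itga3 from -2.22 to -1.81, -3.37 and -3.68. The order of the melanoma lines is not given for either, since their differences from M were within 0.41 and no call was made. Itgb1 means lay between 5.73 and 6.07 in melanoma and at 4.82 and 4.73 in the myeloid lines. For Itga10, a collagen receptor chain named after its values were seen, 2 probes disagreed. The one used was read on all 24 arrays and differed by -0.37 between M and M0, while the other, read on 8 arrays, had means of -1.32 and -1.80 in M0 and J365 and from -6.65 to -4.64 in the melanoma lines.

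Between the myeloid lines, 0 of 19 genes were called in J365 against M0 by limma (1 at an unadjusted p under 0.05), with a background of 1.47%. That 1 was Itga4, at 2.58, 3.08 and 3.14 in J365 and 3.88, 3.61, 3.57 and 3.44 in M0. The lines did not overlap, as for 8.49% of all genes tested, and the difference was -0.69 ± 0.19 (SE, adjusted p = 0.10, limma). It was called with quantile normalization (-0.80, adjusted p = 0.0114), with the 75th percentile taken over probes read on all arrays (-0.77, adjusted p = 0.0178) and with the mean of both probes (-0.83, adjusted p = 0.00801). Tested as the difference between D against M and J365 against M0, 0 of 25 genes were called (1 unadjusted, Cdh15), with a background of 2.07%.

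Genes that work with integrins were counted on lists. Of 25 integrin ligands, 17 were tested in each comparison with M. Col4a1, a chain of the collagen IV that alpha 1 beta 1 binds, was not read in M or DB#2 and was read on every array of D, DB#1 and DB#3. It was at least 9.19-fold higher in D and 8.64-fold higher in DB#3 than in M, with a mean of -0.87 in DB#1 against -1.09 in D and -1.18 in DB#3, and at least 10.3-fold lower in DB#2 than in D (adjusted p from 7.98e-13 to 1.15e-10, limma). Lamb1, a laminin chain, rose in D, DB#1 and DB#3 by 1.37 ± 0.34, 2.01 ± 0.34 and 2.37 ± 0.37 (SE). M was uneven for it, at 1.12, -0.88 and -0.91, and M replicate 1 lay within the D arrays. D lost the call without M replicate 2 or 3 or D replicate 1, 2 or 4. The Lamb1 calls in D, DB#1 and DB#3 were all lost when only the lines compared were fitted. Other calls against M were Col4a2 higher and Tgfb1 lower in D, both lost under several settings, and Spp1 higher and Tgfb1 lower in DB#1. Against D, Icam2 and Spp1 rose in DB#1 (1.04 and 1.64) and in DB#2 (3.34 and 1.78). Lama5, Lamb1 and Thbs1 fell in DB#2 with Col4a1, and 0 of 17 ligands were called in DB#3 by limma. The Icam2 call in DB#1 against D was kept in only 9 of 18 alternatives. That of Thbs1 in DB#2 against D was kept in only 6 of 17.

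In DB#2 against M, 2 ligands rose and 1 fell. Icam2, bound by beta 2 integrins, stood at 1.75, 1.85 and 1.35 in DB#2 and between -1.40 and -0.57 in M, a rise of 2.61 ± 0.24 (SE, adjusted p = 3.87e-07). Spp1, osteopontin, which binds alpha v, alpha 4 and alpha 9 integrins, rose by 1.57 ± 0.29 (SE, adjusted p = 0.00236), a call lost with quantile normalization. Lama5 fell by 2.11 on the log2 scale, ± 0.27 (SE, adjusted p = 3.09e-05). Vcam1 and Madcam1, ligands of the alpha 4 integrins, did not meet the filter in any melanoma line and were not tested. The median over the 17 was 0.27, and 0.02 over all genes tested.

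Of 26 integrin adaptors, 23 were tested in the comparisons with M, and 0 were called in D and in DB#3. Cd9, a tetraspanin, was higher in DB#1 (0.87 ± 0.24, SE, adjusted p = 0.0441), a call lost when any 1 array of either line was left out. In DB#2, Cd81, also a tetraspanin, rose (0.83 ± 0.18, SE, adjusted p = 0.00671) and Tln2, talin 2, fell (-0.95 ± 0.15, SE, adjusted p = 0.000242), and Tln2 was below its other melanoma values on all 3 arrays, at 1.27, 1.58 and 1.17. Against D the same 2 genes were called in DB#2 (0.68 and -1.04), and Cd81 lost that call without DB#2 replicate 2 or 3. Cd81 also lost it with no filter, with only the lines compared and with the mean of all probes. Of the 10 cadherin partners (7 tested) and the 10 cadherin regulators (4 or 5 tested), 0 were called by limma in any comparison among melanoma lines. The fibroblast list moved with DB#2 in part. Dcn, not read in M, stood at -0.19, -1.36 and -2.39 in DB#2 and was at least 7.87-fold higher (adjusted p = 1.02e-05, limma). Pdgfra, not read in DB#2, was at least 2.47-fold lower (adjusted p = 0.0482, limma), a call kept in only 3 of 15 alternatives. Lum and Col3a1 were not read in DB#2. The mean of the 5 genes lay from -5.03 to -4.94 in DB#2 and from -5.62 to -5.05 in M. The part of this list in the integrin results was not tested.

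In M against M0, the counts on the lists stand beside a background of 58.5% of all genes called. Of 6 other integrin chains tested, Itgav was higher in M (1.84 ± 0.22) and 5 were lower, among them Itgam (-1.41 ± 0.29), a chain of white blood cells. Itgam was nevertheless read on every melanoma array, with a mean of 2.91 in M and 4.33 in M0. Among 25 adaptors tested, 13 were higher and 6 lower. Kindlin 2 (Fermt2) was at least 403-fold higher in M, while kindlin 3 (Fermt3), the form of blood cells, was at least 157-fold lower and Parvg at least 149-fold lower. Of 7 cadherin partners tested, 5 were higher and 0 lower, p120 catenin (Ctnnd1) by 2.66 ± 0.14 and beta catenin (Ctnnb1) by 1.20 ± 0.20. Of 16 ligands tested, 10 were higher, fibronectin (Fn1) at least 38.4-fold, and 5 lower. Among 5 cadherin regulators tested, Zeb2 (2.11 ± 0.15) and Snai2 (at least 17-fold) were higher and Zeb1 (at least 20.5-fold) was lower (errors are SE of the limma fit). In J365 against M0, Itgax, an alpha chain of beta 2 integrins, was not read in J365 and was at least 7.19-fold lower (adjusted p = 2e-07, limma). In the difference between the D and J365 contrasts, Itgax, Col4a1, Lamb2 and Thbs1 were called, but each was unread in J365 or in M, so no size is given.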

How the data were processed

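Total RNA of 24 cultured samples of 7 mouse lines was read on 1-colour Agilent arrays, 8 arrays on each of 3 slides, and every slide held every line. Per the labels, the authors deposited scanner output of Agilent Feature Extraction 10.7.3.1, and the processed signal intensity, already corrected for background by that software, was used. The deposited series table held the same intensity values (1511424 of 1511424 equal). The study's methods name GeneSpring for statistics and filtering and state no test. Arrays have no read depth, and their number limits the precision.

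Control spots and outlier flags were left out (117 of 56605 probes were lost), and no other spot was saturated. Signals were taken as log2 minus the 75th percentile of each array, spots of a probe were averaged, and the brightest probe stood for a gene. Symbols came from RefSeq through the transcript accession (32917 probes). A gene was tested if it was well above background on every array of at least 1 line compared. limma 3.58.1 in R 4.3.3 was fitted to all 24 arrays with a term per line, p-values were adjusted by Benjamini-Hochberg over all genes tested in a comparison, and genes under 0.05 were called. For a gene read in 1 line only, a fold is a bound: the mean of the bright line against, per array of the dim line, its own signal or, if higher, that of the dimmest probe still well above background. The fit was tested on simulated data drawn without a slide effect, so that test does not cover the likeness of arrays on the same slide.

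Genes named were 10 fixed for their textbook roles, up to 4 called genes in each direction with the largest change among those read in both lines, up to 2 in each direction by bound, and others where the text says so. The members and lists were chosen with earlier results of these data known. Alternatives were quantile normalization, normexp (offset 50, on the median signal, as the files used hold no mean signal), the percentile over probes detected on all arrays, no scaling, no filter, slide or replicate number as a block, only the lines compared, the mean of all probes, and each array left out in turn. Replicate 4 of M0 and of J365 is a name for a title without a number.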

Additional observations from a re-analysis of the deposited data

Results flagged for a closer look

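Among 59 groups of 4 arrays examined for a single array far from the others, 3 were flagged, close to the 5% that would be by chance. Itgb3 in D had 1 high array, D replicate 1 at 3.33, with the nearest at 0.5 and the lowest at 0.03. Itga7 in D was also high on D replicate 1, at -1.33, with the nearest at -3.57 and the lowest at -3.61. Cdh8 in M0 was highest on M0 replicate 2, at -1.78, with the nearest at -1.95 and the lowest at -1.97.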

How the results depend on the processing

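Of 28 single-gene results, 17 kept their direction and their side of the threshold under every alternative run, 11 changed side under 1 or more, and 0 changed sign. Among melanoma lines, those kept were only Itgb5 in DB#2 against M and D, and Itga4 in DB#2 against D. The other kept results were from M against M0, where 58.5% of all genes tested were called. Itgb5 stayed called in DB#2 under every alternative, from -3.15 to -2.48 against M and from -3.71 to -3.10 against D. Besides losses with an array left out, the Itga1 call in DB#2 against M was lost with quantile normalization. The Itga4 call in DB#2 against M was lost with no filter, with the replicate block and with only the lines compared. In DB#2 against D, the Itga5 call was lost with only the lines compared. The number of integrin and cadherin genes called moved under these settings. With normexp it was 2 in D against M (Itga9 and Itgb5), 1 in DB#1 against M (Itga9) and 1 in the difference between the D and J365 contrasts (Itgb5). With quantile normalization, and with the percentile over detected probes, it was 1 in J365 against M0 (Itga4). When other lines were left out of the fit it was 2 in DB#1 against M. With the mean of all probes it was 1 in D against M, 3 in DB#1 against M, 5 in DB#2 against D and 1 in J365 against M0. Leaving out each array in turn gave 0 to 1 in D against M, 1 to 2 in DB#2 against M, 2 to 4 in DB#2 against D, 16 to 19 in M against M0, and 0 in the other comparisons. The cause was not tested. Over all genes, calls in D against M rose from 596 to 934 without D replicate 1, and calls in J365 against M0 from 303 to 539 with quantile normalization. Replicate numbers did not pair the samples (mean correlation 0.0783 for the same number in other lines, 0.495 for the same slide), and the replicate block gave 2 calls in DB#2 against M, 3 in DB#2 against D, 19 in M against M0 and 0 elsewhere. Slide as a block without D replicate 3, chosen after seeing the data, gave 4 in DB#2 against D. Without scaling, the median of all genes was 0.25 in DB#2 against M and 0.17 in D against M. Probes not well above background give only a bound.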
